A study of Mus musculus with 60 samples.

Results

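The clustered protocadherin genes were followed in RNA-Seq of mouse dentate gyrus (DG), the part of the hippocampus that receives input from entorhinal cortex and makes new neurons in adults. Members were the protein-coding genes whose symbol begins with *Pcdha*, *Pcdhb* or *Pcdhg* and continues with a number, a letter and a number, or c and a number. There were 57 of them among 46480 genes, 14 in the *Pcdha* cluster, 22 in *Pcdhb* and 21 in *Pcdhg*. Tissue came from male C57BL6J mice that entered standard housing (SH) or an enriched environment (EE) at weaning on day 22 and lived there 8 weeks, until day 80. The 4 groups were dorsal DG in SH, dorsal DG in EE, ventral DG in SH and ventral DG in EE, with 5 samples each. All mice were of one strain. Each sample pooled tissue of several mice. Dorsal and ventral samples were taken from the same mice, and the dorsal and ventral samples of one housing and replicate number are treated here as one pool.

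SH replicate 3 was left out in both regions, which left 18 samples from 9 pools (4 SH, 5 EE). Its *Xist* level, a transcript of female cells, was 34.3 CPM (the count scaled to a common library size) in dorsal and 11.9 in ventral DG, against at most 0.652 in the other 18 samples. Between 22919364 and 28301861 fragments per sample were counted on genes (median 25816353).

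Clustered protocadherins are cell-surface cadherin-like proteins that bind copies of themselves on neighbouring membranes, and combinations of isoforms give neurons an identity used in self-avoidance of dendrites and in circuit formation. In the *Pcdha* and *Pcdhg* clusters each member has its own promoter and first, variable exon, which is spliced to constant exons shared by the cluster, whereas *Pcdhb* genes have no shared constant exons. Single neurons choose most promoters at random, with the help of CTCF and cohesin, while the C-type genes at the end of the *Pcdha* and *Pcdhg* clusters are known for steadier expression. The C-type members were *Pcdhac1*, *Pcdhac2*, *Pcdhgc3*, *Pcdhgc4* and *Pcdhgc5*.

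The 3 clusters follow each other on chromosome 18 of mm10. *Pcdha* spanned positions 36930184 to 37187661, *Pcdhb* 37264938 to 37524479 and *Pcdhg* 37661793 to 37841873. Because constant exons belong to many members at once, the gene counts hold only fragments in exon sequence that belongs to one member, with a median of 2479.5 bases in *Pcdha*, 3714 in *Pcdhb* and 2637 in *Pcdhg*. The estimated counts, in which fragments of shared exons are divided among members, were 1.99 times the counts in *Pcdha*, 1.74 times in *Pcdhg* and 0.977 times in *Pcdhb*. *Pcdha4* was the extreme case, with only 494 bases of its own, at most 4 counts in any sample and 251 estimated counts for each count. *Pcdha4* and *Pcdhb1* were under the limit on low counts, so 55 members were tested (13, 21 and 21). The annotation gives the name *Pcdha11* to 2 genes, which are told apart by their identifiers.

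Levels per length were compared between members by TPM, within samples, since the scale of TPM differed between samples (the median of log2(TPM + 1) over tested genes ranged from 1.55 to 2.38). Of the 57 members 29 had a mean TPM over 1, which were 20 of 21 in *Pcdhg*, 7 of 22 in *Pcdhb* and 2 of 14 in *Pcdha*. The highest were *Pcdhgc5*, which associates with GABA-A receptors, with a TPM of 15.5 ± 4.53 (SD, n = 18), *Pcdhgc3*, a regulator of dendrite arbors, with 13.1 ± 2.25, and *Pcdhgc4*, needed for survival of neurons, with 12.0 ± 1.77. *Pcdhac2*, known for its part in the tiling of serotonergic axons, came next with 4.36 ± 1.26. *Pcdhgc5* was above *Pcdhgc3* in 14 of 18 samples and *Pcdhgc3* above *Pcdhgc4* in 11 of 18, so these neighbours were not separated in every sample. *Pcdhgc4* was above *Pcdhac2* in 18 of 18.

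The place of *Pcdhgc4* rested on how shared fragments were divided. It had 6.98 estimated counts for each count, against 1.57 for *Pcdhgc3* and 1.64 for *Pcdhgc5*. Per kilobase of own exon the order was *Pcdhgc3* (23.8 ± 1.5 CPM, SD, n = 18), *Pcdhgc5* (16.1 ± 2.95) and *Pcdhac2* (10.1 ± 1.17), and *Pcdhgc4* stood at 2.55 ± 0.335, rank 23 of 57 instead of 3.

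Among *Pcdhb* members, *Pcdhb9* had the highest TPM (3.09 ± 1.02), followed by *Pcdhb7* (1.77 ± 0.563), and *Pcdhb6* was the lowest of those tested (0.301 ± 0.114). *Pcdhb17* was close to *Pcdhb7* (1.75 ± 0.603), and above it per kilobase of own exon (3.64 ± 0.808 against 3.58 ± 0.687 CPM). In *Pcdha*, *Pcdha9* (0.785 ± 0.220) was nearest below *Pcdhac2* among members over the count limit, and *Pcdha8* was the lowest (0.0900 ± 0.0327). *Pcdha12* was close to *Pcdha9* (0.781 ± 0.313), and above it per kilobase of own exon (1.83 ± 0.472 against 1.80 ± 0.236 CPM). *Pcdhgb5* was the lowest tested *Pcdhg* member at 0.933 ± 0.197. The plot of TPM along the clusters shows the high C-type end of *Pcdhg* beside the low *Pcdha* members.

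**Figure D1:**
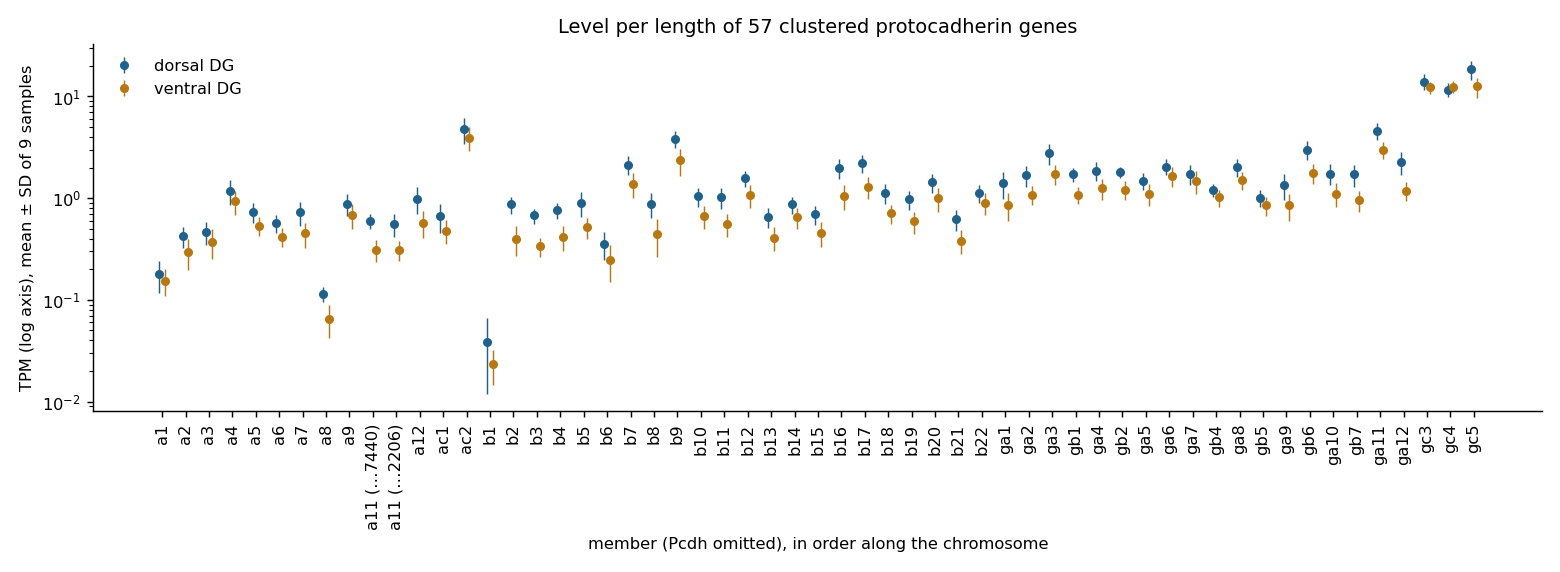
TPM of the 57 members on a log axis, in order along the chromosome, with mean and SD over 9 dorsal (blue) and 9 ventral (brown) samples. *Pcdhgc5*, *Pcdhgc3* and *Pcdhgc4* are the highest, at mean TPM of 15.5, 13.1 and 12.0 over both regions.

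Dorsal and ventral DG were compared first, which asks how expression differs along the long axis of the hippocampus. Clustered protocadherins were higher in dorsal DG in each of the 3 clusters. The summed level of the *Pcdhb* members was 184 CPM at the lowest, 212 at the median and 218 at the highest of the 9 dorsal samples, against 127, 145 and 159 in the ventral ones, so the regions did not overlap. The *Pcdhg* sum was 358, 374 and 392 CPM in dorsal and 291, 298 and 319 in ventral DG, again without overlap. The *Pcdha* sum was 61.0, 68.3 and 75.2 CPM in dorsal and 43.6, 54.7 and 61.3 in ventral DG, where the lowest dorsal sample lay just under the highest ventral one.

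Within each of the 9 pools the sum was higher in dorsal DG for all 3 clusters. The ratio of dorsal to ventral was 1.43 ± 0.0751 in *Pcdhb* (SD, n = 9 pools), 1.24 ± 0.0622 in *Pcdhg* and 1.23 ± 0.113 in *Pcdha*. The plot of summed levels shows each sample. These are bulk tissue values, in which fewer cells of a type and less RNA per cell cannot be told apart.

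**Figure D2:**
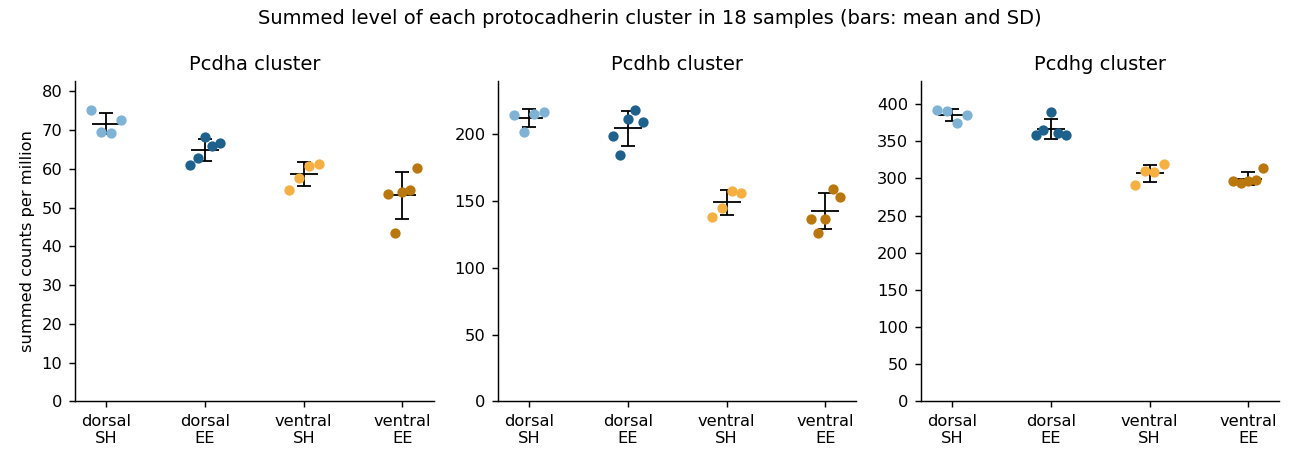
Summed CPM of the *Pcdha*, *Pcdhb* and *Pcdhg* members in each of 18 samples by region and housing, with mean and SD per group and axes starting at 0. Ventral samples lie under dorsal samples in *Pcdhb* (at most 159 against at least 184 CPM) and *Pcdhg* (at most 319 against at least 358 CPM).

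Gene by gene, 40 of the 55 tested members were called higher in dorsal DG and 0 higher in ventral DG (edgeR quasi-likelihood test, Benjamini-Hochberg FDR under 0.05 and a difference of at least 20%). Of all 17040 genes tested, 15.9% were called in the direction of dorsal DG and 16.8% in that of ventral DG. The members called were 8 of 13 in *Pcdha*, 19 of 21 in *Pcdhb* and 13 of 21 in *Pcdhg*. The median log2 fold change of dorsal over ventral was 0.34 in *Pcdha*, 0.54 in *Pcdhb* and 0.43 in *Pcdhg*, beside -0.00463 over all genes. For 23 of 55 members the lowest dorsal sample lay above the highest ventral one (3 in *Pcdha*, 12 in *Pcdhb*, 8 in *Pcdhg*), as it did for 9.51% of all genes. At an unadjusted p under 0.05, 47 members were higher in dorsal DG and 0 lower (31.0% and 31.2% of all genes), and DESeq2, too, called 0 members higher in ventral DG.

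Markers of cell types moved with region too, beside 15.9% of all genes called toward dorsal and 16.8% toward ventral DG. *Prox1*, the defining factor of granule cells, was at 242.5 ± 19.8 CPM (SD, n = 9) in dorsal and 126.6 ± 15.1 in ventral DG. Of 5 granule cell markers 4 were called higher in dorsal DG, and their sum was 982 to 1123 CPM in dorsal and 480 to 693 in ventral DG. Of 5 markers of immature neurons 5 were higher in dorsal DG, with a sum of 106 to 129 against 72.9 to 92.7 CPM. Of 11 choroid plexus markers 11 were higher in ventral DG (27.4 to 218 against 401 to 1471 CPM). Sums that were higher in ventral DG without overlap were those of mossy cells (1 of 3 called, 13.0 to 27.1 against 59.7 to 103 CPM), CA3 cells (2 of 4 called and 1 in the other direction, 242 to 276 against 305 to 346 CPM) and meninges (3 of 5 called, 23.7 to 36.9 against 42.4 to 54.9 CPM). Sums overlapped between regions for CA1 cells (1 of 4 called higher in dorsal DG and 2 lower), interneurons (3 of 7 lower), astrocytes (2 of 6 lower), and, with no gene called, oligodendrocytes and their precursors, microglia and endothelium. No marker was at 0 in all 18 samples. The part of these in the protocadherin differences was not tested.

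The largest difference was that of *Pcdhb2*, at 4.14, 4.48 and 5.41 CPM (lowest, median and highest of 9) in dorsal and 2.01, 2.18 and 2.85 in ventral DG. Every dorsal sample was above every ventral one. Its log2 fold change was 1.01 ± 0.0874 (SE, adjusted p = 1.76e-09), a 2.01-fold difference.

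*Pcdhb3* had 4.55, 5.12 and 6.20 CPM in dorsal and 2.07, 3.03 and 3.56 in ventral DG, also without overlap (log2 fold change 0.83 ± 0.0821, adjusted p = 1.43e-08). *Pcdhb8* had 2.57, 3.63 and 4.08 CPM in dorsal and 1.68, 2.01 and 2.93 in ventral DG, and these ranges overlapped (0.73 ± 0.110, adjusted p = 6.19e-06), though dorsal was higher in 9 of 9 pools. The abundant *Pcdhb9* was higher in dorsal DG by 0.54 ± 0.0740 on the log2 scale (adjusted p = 1.71e-06) and *Pcdhb7* by 0.46 ± 0.0633. The smallest difference of the cluster was that of *Pcdhb22*, 0.20 ± 0.0489, which passed the FDR (adjusted p = 0.00154) but not the limit of 20%. *Pcdhb14*, at 0.24 ± 0.0597, was the other member not called. Along the *Pcdhb* cluster the fold change tended to be larger at the *Pcdhb2* end (Pearson r = -0.63, Spearman rho = -0.59 with order over 21 members that share the same libraries).

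In *Pcdha*, the gene ENSMUSG00000007440 named *Pcdha11* had 2.62, 2.98 and 3.74 CPM in dorsal and 1.27, 1.78 and 2.12 in ventral DG. The second *Pcdha11*, ENSMUSG00000102206, had 2.60, 3.02 and 3.54 in dorsal and 1.49, 1.86 and 2.35 in ventral DG. *Pcdha12* had 4.20, 5.56 and 6.31 CPM against 2.49, 3.79 and 4.17. In none of these did the regions overlap, and they were the members of the cluster for which this held. Log2 fold changes were 0.84 ± 0.102 (adjusted p = 2.90e-07) for *Pcdha11* ENSMUSG00000007440, 0.71 ± 0.0881 (adjusted p = 4.39e-07) for *Pcdha11* ENSMUSG00000102206 and 0.63 ± 0.0752 (adjusted p = 2.44e-07) for *Pcdha12*. *Pcdha8*, the lowest in level, differed by 0.69 ± 0.177 (adjusted p = 0.00196), from 7 to 23 counts per sample. *Pcdha9* differed by 0.23 ± 0.0786, under the limit of 20%. The smallest difference was that of *Pcdha1*, 0.02 ± 0.161 (adjusted p = 0.928), at 13 to 28 counts per sample.

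In *Pcdhg*, *Pcdhga12* had 12.7, 14.8 and 18.1 CPM in dorsal and 7.59, 8.87 and 10.4 in ventral DG (log2 fold change 0.77 ± 0.0617, adjusted p = 4.56e-10). *Pcdhgb7* had 8.32, 9.68 and 11.1 CPM against 5.21, 6.36 and 7.08 (0.62 ± 0.0639, adjusted p = 3.00e-08). *Pcdhgb6* had 14.2, 16.9 and 18.1 CPM against 10.1, 10.96 and 11.8 (0.59 ± 0.0423, adjusted p = 7.59e-11). The regions did not overlap for any of the 3.

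Differences were small over one stretch of *Pcdhg*. Of the 18 A- and B-type members, the 6 that follow each other from *Pcdhga5* to *Pcdhgb5* (*Pcdhga5*, *Pcdhga6*, *Pcdhga7*, *Pcdhgb4*, *Pcdhga8* and *Pcdhgb5*) had log2 fold changes of 0.04 to 0.24 and 0 of them were called. The 12 on either side had log2 fold changes of 0.39 to 0.77 and 12 of 12 were called. This contrast rests in part on the limit on the size of the difference. Without that limit 15 of 21 *Pcdhg* members passed the FDR, against 13 called. The additional ones lay in the stretch, since *Pcdhgc3* and *Pcdhgc4* did not pass. *Pcdhga5* was called without EE replicate 5, and *Pcdhga8* with limma. No other alternative that kept the limit called a member of the stretch. The boundaries of this stretch were chosen after the values were seen, and no test was made of it. *Pcdhgb5* in the stretch had 6.14, 6.38 and 7.85 CPM in dorsal and 5.32, 6.04 and 7.60 in ventral DG, with broad overlap (0.10 ± 0.0752, adjusted p = 0.245). Its value was 0.04 without SH replicate 4 and 0.16 without SH replicate 5.

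**Figure D3:**
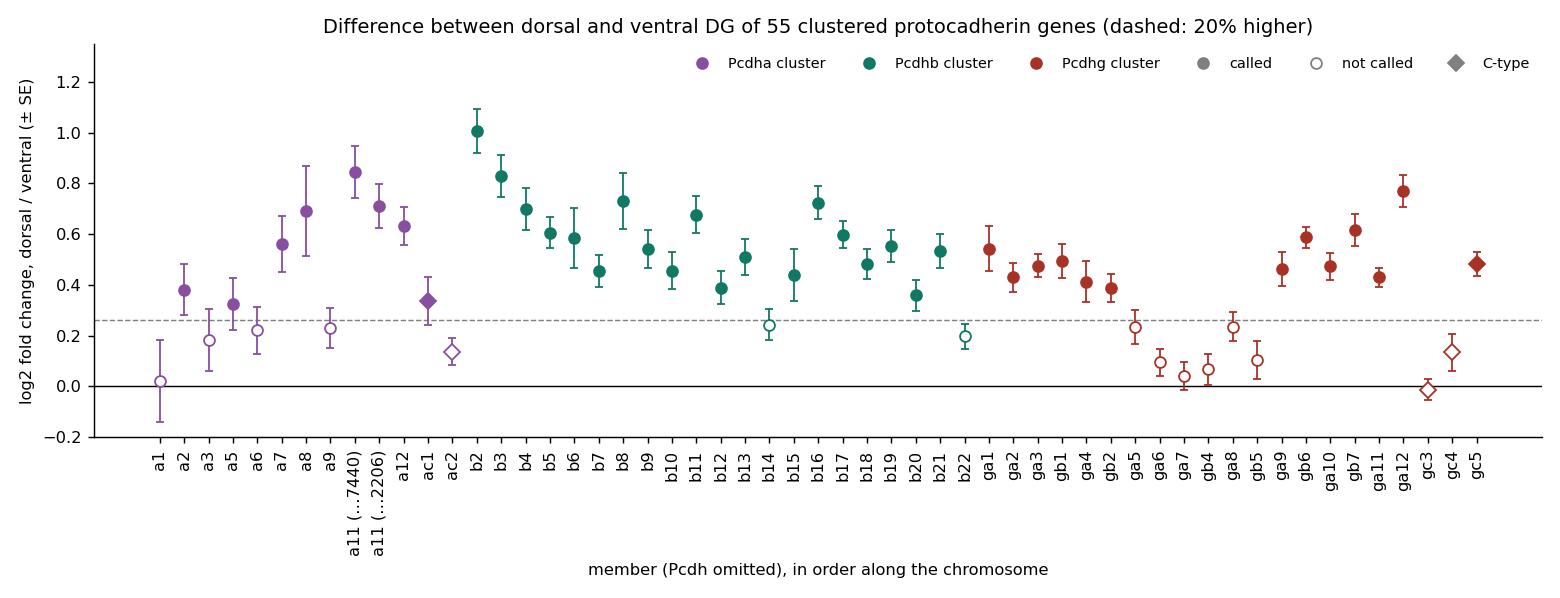
Log2 fold change of dorsal over ventral DG with SE for the 55 tested members in order along the chromosome, coloured by cluster. Filled symbols were called, diamonds are C-type, and the dashed line is a difference of 20%. Filled symbols fill most of *Pcdhb* (19 of 21), and open ones stand together from *Pcdhga5* to *Pcdhgb5*.

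The C-type members differed among themselves. *Pcdhgc5* had 79.2, 85.2 and 94.6 CPM in dorsal and 55.6, 59.2 and 68.6 in ventral DG, without overlap (0.48 ± 0.0474, adjusted p = 1.32e-08, a 1.40-fold difference). *Pcdhgc3*, its near neighbour and of similar level, had 73.8, 78.7 and 87.0 CPM in dorsal and 72.5, 81.7 and 90.7 in ventral DG. These ranges covered each other, and the log2 fold change was -0.01 ± 0.0417 (adjusted p = 0.809). It was the single tested member with a value below 0, and the value was 0.00904 with counts of both strands and 0.18 with limma on log2(TPM + 1).

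*Pcdhgc4* had 7.79, 9.36 and 10.8 CPM in dorsal and 6.34, 8.89 and 9.37 in ventral DG (0.13 ± 0.0719, adjusted p = 0.115), and was higher in dorsal in 5 of 9 pools. By housing, the log2 fold change of *Pcdhgc4* was 0.29 in SH, where it was called, and -0.02 in EE, where it was not. The difference between these was not called. Without EE replicate 2, whose ventral sample was the lowest, the log2 fold change over both housings was 0.07. With estimated counts its log2 fold change turned to -0.23 ± 0.0833 (adjusted p = 0.0243), so its direction depended on how shared fragments were used. *Pcdhac1* had 3.02, 3.90 and 4.95 CPM in dorsal and 2.54, 3.22 and 3.62 in ventral DG, with overlap, and was called (0.34 ± 0.0946, adjusted p = 0.00399). It was higher in dorsal DG in 7 of 9 pools. By housing it was called in SH (0.46 ± 0.139) but not in EE (0.22 ± 0.128, adjusted p = 0.167 in edgeR). *Pcdhac2* had 28.6, 30.7 and 39.2 CPM against 22.1, 28.5 and 32.9 (0.14 ± 0.0530, adjusted p = 0.0316), under the limit of 20%, and its value was 0.09 without SH replicate 1 (adjusted p = 0.172). The plot of single members shows these beside *Pcdhb2*, *Pcdhb3* and *Pcdhga12*.

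**Figure D4:**
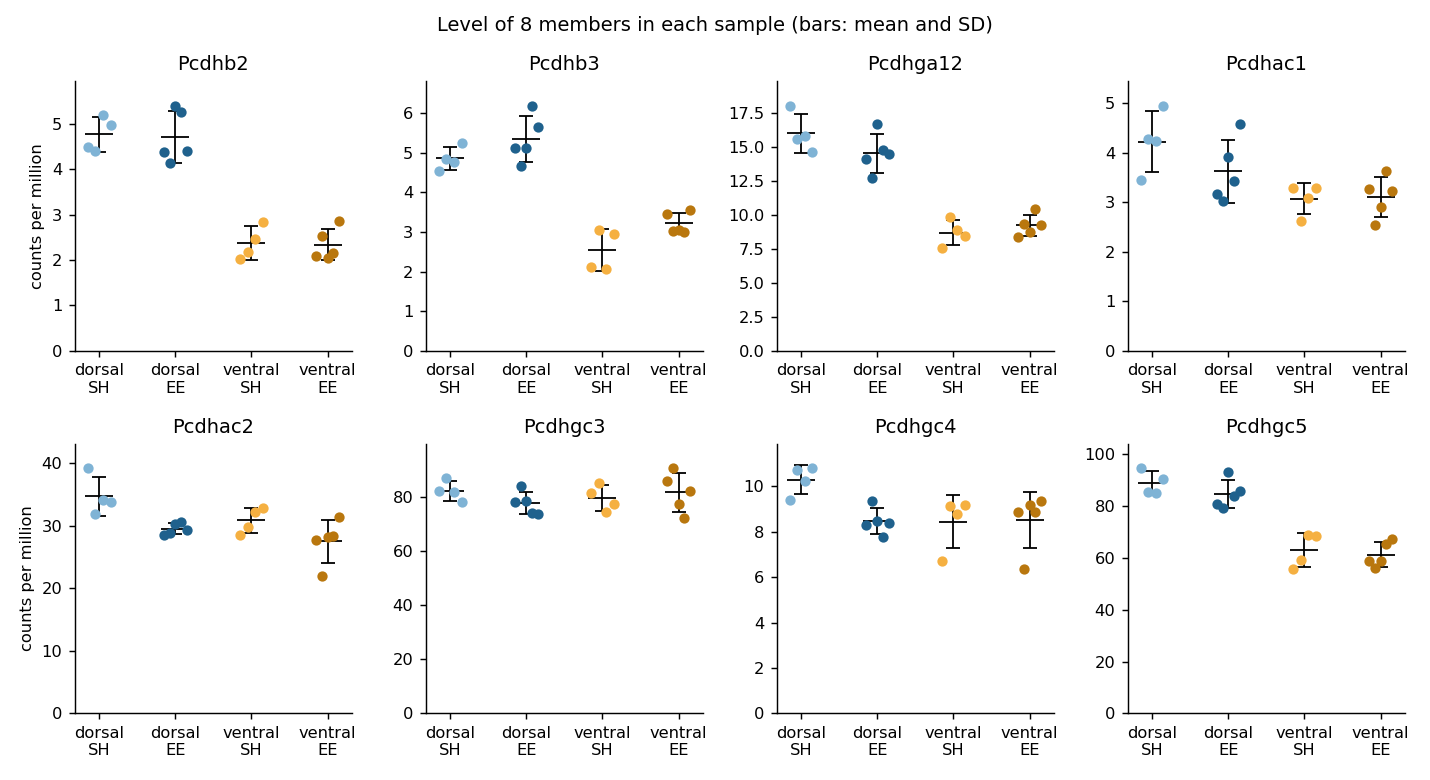
CPM of 8 members in each of 18 samples by region and housing, with mean and SD per group and axes starting at 0. *Pcdhb2*, *Pcdhb3*, *Pcdhga12* and *Pcdhgc5* separate dorsal from ventral samples, while *Pcdhgc3* ranges from 72.5 to 90.7 CPM in ventral and from 73.8 to 87.0 in dorsal DG.

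C-type members made up a smaller share of their cluster in dorsal DG. In *Pcdhg* they held 55.6% ± 1.73 of the cluster's TPM in dorsal and 61.4% ± 1.93 in ventral DG (SD, n = 9 each), with 53.2% to 58.2% in dorsal and 58.7% to 64.3% in ventral samples. In *Pcdha* the shares were 42.1% ± 1.92 and 46.2% ± 0.961. The summed share was lower in dorsal DG in 9 of 9 pools for both clusters. The single members did not move alike. *Pcdhgc4* had 14.9% ± 3.05 of the *Pcdhg* TPM in dorsal and 20.6% ± 2.29 in ventral DG. Its TPM rested on how shared fragments were divided. *Pcdhgc3* had 17.6% ± 0.740 and 20.3% ± 1.26, but *Pcdhgc5* had 23.1% ± 1.28 and 20.5% ± 1.385. *Pcdhac2* had 37.0% ± 2.17 and 41.2% ± 0.909 of the *Pcdha* TPM, and *Pcdhac1* 5.12% ± 0.716 and 5.04% ± 0.555. By counts, which leave shared exons out, the C-type shares were 46.8% ± 0.496 in dorsal and 49.98% ± 1.23 in ventral DG for *Pcdhg*, and 52.6% ± 2.19 and 57.7% ± 0.932 for *Pcdha*. Over pools, the summed CPM of C-type members was 1.16 ± 0.0729 times as high in dorsal as in ventral DG in *Pcdhg* and 1.12 ± 0.121 times in *Pcdha*. For the other members these ratios were 1.32 ± 0.0622 and 1.38 ± 0.123.

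Over all members, the difference between regions was also present in each housing by itself, in separate samples, but less so for C-type members in EE. In SH, 37 of 55 members were called higher in dorsal DG (14.1% of all genes), and in EE 41 of 55 (14.1% of all genes). The opposite call was made for 0 members in both, against 14.2% of all genes in SH and 15.8% in EE. In SH and EE alike 35 of them were called, 2 in SH alone and 6 in EE alone, and 50 of 55 had a log2 fold change above 0 in both. The 2 called in SH alone were the C-type members *Pcdhac1* and *Pcdhgc4*. Of the 5 C-type members 3 were called in SH and 1 in EE, and 2 were below 0 in EE. For no member was the difference between regions called as differing between housings. Below 0 were 1 member in SH and 4 in EE, beside 50.1% and 50.9% of all genes. Across members the values in SH and EE had a Pearson r of 0.80 (n = 55 members of the same libraries). With limma on log2(TPM + 1), 25 members were called in SH and 16 in EE. That scale understates differences of low genes, and TPM was not rescaled between samples. The part of each in these lower counts was not tested. In SH replicate 3, which was left out, 50 of 55 members were higher in dorsal than in ventral DG. Shares of all genes are not given here for this replicate, for limma or for agreement of the 2 housings.

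Genes around the clusters went both ways, as did all genes tested (15.9% called toward dorsal and 16.8% toward ventral DG). Of the 25 tested protein-coding genes that lie within 500 kb of the clusters or between them, 2 were called toward dorsal and 5 toward ventral DG, with a median log2 fold change of -0.01. *Taf7*, a subunit of the general transcription factor TFIID that lies between *Pcdhb* and *Pcdhg*, had 0.06 ± 0.0553 (adjusted p = 0.392). Those higher in dorsal were *Pcdh1*, a protocadherin outside the clusters (0.40 ± 0.0417), and *Ankhd1* (0.35 ± 0.0281). The largest toward ventral DG were *Hbegf*, a growth factor (-0.57 ± 0.0658), and *Rell2* (-0.47 ± 0.0485). Among 8 tested genes within the clusters that do not encode protein, 4 were called toward dorsal DG and 1 toward ventral DG. The largest were the pseudogenes *Gm19035* (1.42 ± 0.290, at 0.373 CPM in dorsal and 0.135 in ventral DG) and *Gm36858* (0.98 ± 0.210, at 0.466 and 0.249 CPM). *Pcdhgb8*, annotated as a polymorphic pseudogene and so no member, was also among the 4 (0.69 ± 0.114, adjusted p = 2.24e-05) and was named after its values were seen.

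Related genes were also examined, beside 15.9% of all genes called toward dorsal and 16.8% toward ventral DG. Of 21 genes for CTCF, cohesin and chromatin regulators, 13 were called higher in dorsal DG and 0 lower, with a median log2 fold change of 0.28. *Smchd1*, a chromatin protein known to repress this locus, had 0.47 ± 0.0401 (adjusted p = 1.47e-09), and *Dnmt3b*, a de novo DNA methyltransferase, 0.47 ± 0.168 (adjusted p = 0.0193). Of 17 genes for signalling partners 5 were called higher in dorsal DG and 0 lower. They were led by *Ptk2b*, a kinase that protocadherins inhibit (0.46 ± 0.0567), and *Wasf1*, of the WAVE complex (0.46 ± 0.0754).

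Other cadherin genes went both ways, as did all genes tested (15.9% called toward dorsal and 16.8% toward ventral DG). Of 12 protocadherins outside the clusters 3 were called toward dorsal and 3 toward ventral DG (median 0.02). *Pcdh8*, an activity-regulated protocadherin, was higher in dorsal (0.91 ± 0.0513) and *Pcdh11x* in ventral DG (-0.61 ± 0.0499). Of 19 tested cadherins 2 were called toward dorsal and 5 toward ventral DG (median -0.02), with *Cdh23* (1.38 ± 0.0873) and *Cdh3* (-2.94 ± 0.477) as the largest.

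EE was then compared with SH within each region, which asks whether housing changed expression. No member was called in dorsal DG (0 of 55, beside 0.634% of all genes) or in ventral DG (0 of 55, beside 0.241%) with edgeR, and DESeq2 also called 0. At an unadjusted p under 0.05 there were 8 members in dorsal DG, 7 of them lower in EE (8.81% of all genes passed, 4.21% lower), and 6 in ventral DG, 5 of them lower (7.58% of all genes, 3.32% lower). The median log2 fold change of EE over SH was -0.07 in dorsal and -0.05 in ventral DG, with 41 and 40 of 55 members below 0. Of all genes 51.4% and 50.1% were below 0. Among genes around the clusters, *Diaph1*, which lies after *Pcdhg*, was called lower in EE in dorsal DG. Its log2 fold change was -0.27 ± 0.0479 there (adjusted p = 0.00597 in edgeR) and -0.12 ± 0.0482 in ventral DG (adjusted p = 0.561).

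The smallest p in dorsal DG was that of *Pcdhac2*. Its level was 39.2, 31.9, 34.1 and 33.8 CPM in the SH samples and 28.6, 28.9, 30.2, 30.7 and 29.4 in EE. Each EE sample was under each SH sample, and the log2 fold change was -0.23 ± 0.0745 (adjusted p = 0.220). *Pcdhb5* followed, at 6.17 to 7.28 CPM in SH and 5.22 to 6.15 in EE (-0.24 ± 0.0805, adjusted p = 0.278). In all, 6 members had every dorsal EE sample under every dorsal SH sample (1.78% of all genes), and 0 every one above (2.21% of all genes). They were *Pcdhac2*, *Pcdhb5*, *Pcdhb22*, *Pcdhgb6*, *Pcdhga10* and *Pcdhgc4*, some of which were named only after their values were seen. The 5 C-type members were all below 0 in dorsal DG (-0.28 to -0.07), as were 36 of the 50 other members. In ventral DG 2 of the 5 C-type members were below 0.

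In ventral DG 0 members separated the housings in either direction (1.17% of all genes lower and 1.28% higher). *Pcdha12* had the smallest p, at 4.01 ± 0.163 CPM in SH (SD, n = 4) and 3.17 ± 0.499 in EE (n = 5), with a log2 fold change of -0.33 ± 0.112 in edgeR (adjusted p = 0.384). *Pcdhb3* was the member with the largest value in the other direction, 2.55 ± 0.526 CPM in SH and 3.22 ± 0.265 in EE (0.34 ± 0.125, adjusted p = 0.453 in edgeR). The plot of enrichment effects shows all members in both regions.

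**Figure D5:**
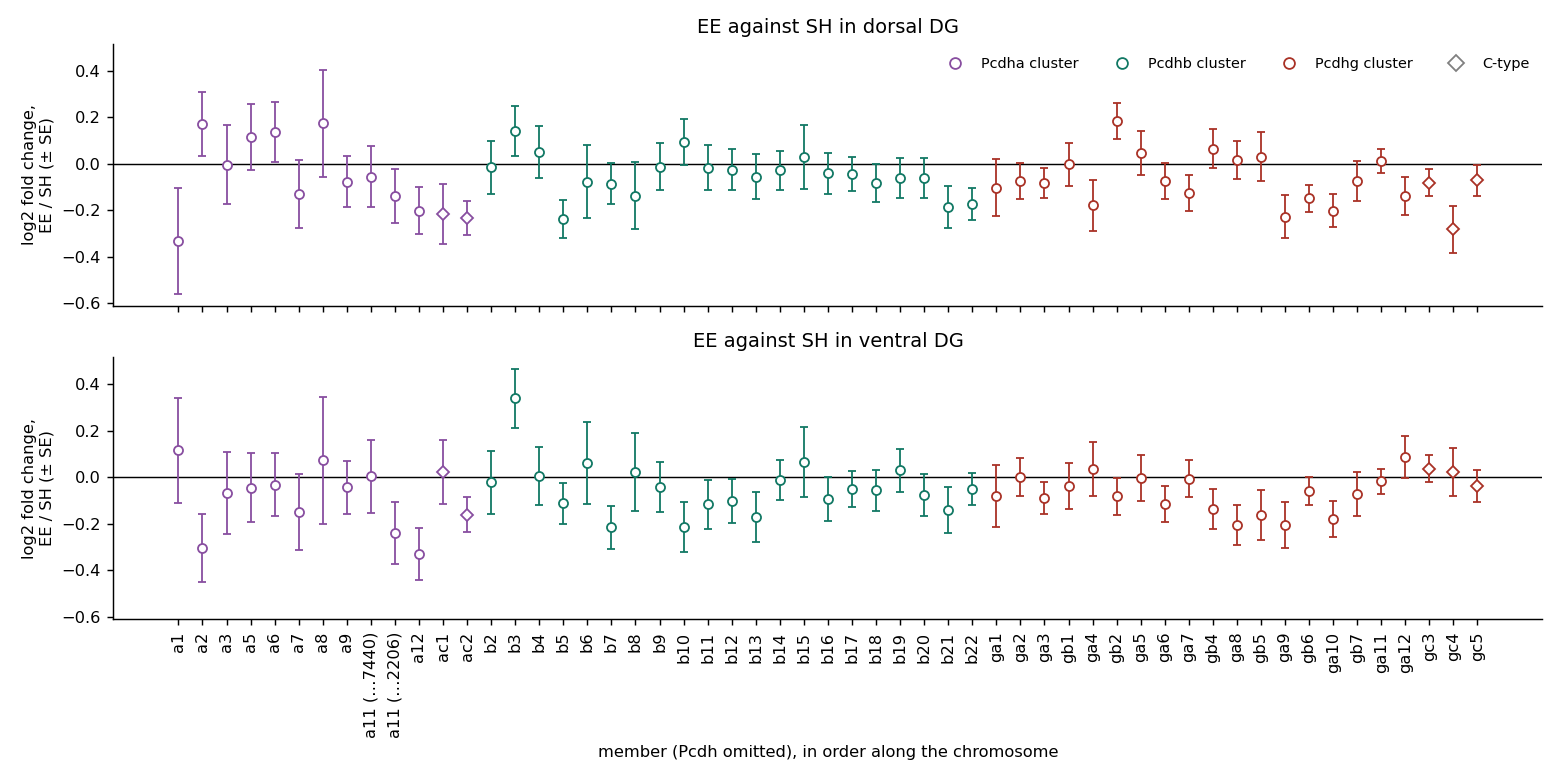
Log2 fold change of EE over SH with SE for the 55 tested members in dorsal DG (top) and ventral DG (bottom), in order along the chromosome. No member was called in either region, and values range from -0.33 to 0.18 in dorsal and from -0.33 to 0.34 in ventral DG.

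The enrichment effects of the regions were not shown to differ for any member (0 of 55 called, beside 0.00587% of all genes, with 4 members at an unadjusted p under 0.05, beside 3.25%, and 0 called by DESeq2). The smallest p values were those of *Pcdhgb2*, whose log2 fold change was higher by 0.27 ± 0.112 in dorsal than in ventral DG, and *Pcdha2*, with 0.47 ± 0.201 (adjusted p = 1.00 for both). *Pcdhgb2* was at 0.18 ± 0.0767 in dorsal and -0.08 ± 0.0809 in ventral DG. *Pcdha2* was at 0.17 ± 0.137 in dorsal and -0.30 ± 0.147 in ventral DG.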

How the data were processed

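RNA-Seq libraries (stranded, total RNA) of 20 samples were used, and 40 bisulfite samples of the series were not analysed here. Per the submitters' processing notes, Trim Galore 0.4.0, STAR 2.5.1b and RSEM 1.2.30 were used, on mm10. The authors deposited a count of fragments per gene for each sample, without normalization, from which the reverse-strand column was taken. The authors' other table for each sample held an expected count (estimated count) per gene, rounded here before testing, and the deposited TPM. Gene names came from Gencode vM21 (45968 of 46480 matched), as did the lengths of own exon. The study names Gencode vM7 for its genes, so these lengths may differ from those behind the counts.

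A gene was tested if more than 10 counts were found in 2 or more samples. One edgeR 4.0.16 model (R 4.3.3) held the 4 groups, with TMM normalization, quasi-likelihood tests and Benjamini-Hochberg adjustment over all genes. The region contrast is the mean of the differences in SH and EE. SE is the absolute log2 fold change divided by the square root of F. CPM is after TMM, except for *Xist*.

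Members, lists and related genes were chosen with earlier results of these data known. Named members were the 3 markers and other C-type genes, the 2 highest and the lowest by TPM of each cluster, the 3 largest called differences with one direction in 9 pools and the smallest, any against the cluster's direction, and the 2 smallest p values of each enrichment contrast. For other lists and neighbours, the 2 largest called between regions were named, and any called in an enrichment contrast. *Taf7*, *Prox1*, *Pcdh1*, *Ankhd1*, *Pcdhgb8* and *Pcdhb17* were added after their values were seen.

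Dorsal and ventral samples came from the same mice per a figure legend of the study. That equal replicate numbers mark the same mice was taken from the labels' numbering and is not stated. Deviations from group means had correlations of -0.13 to 0.31 within these 9 pairs (mean 0.13). SH and EE samples of one number and region had correlations of 0.11 to 0.28 in 8 of 8 pairs. The study's model has no block, and fits with one were an alternative. Others were DESeq2 1.42.0, limma 3.58.1 on log2(TPM + 1), the edgeR likelihood ratio test, robust dispersion, RLE size factors, library totals, other filters, unstranded counts, expected counts, all 20 samples and leaving out each pool. The procedure was tested on simulated data. No sequences are shown. One list of related genes is not reported here.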

Additional observations from a re-analysis of the deposited data

Results flagged for a closer look

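In groups of 4 or 5 samples, a sample was singled out when its gap to the nearest other was large for the range of the group (Dixon's criterion, 112 groups examined, of which chance singles out about 1 in 20). For the summed *Pcdhg* level, dorsal EE replicate 3 had 389 CPM against 358 to 365 in the other 4, and ventral EE replicate 5 had 315 against 294 to 298. For *Pcdhgc4*, ventral SH replicate 1 had 6.71 CPM against 8.79 to 9.17, and ventral EE replicate 2 had 6.34 against 8.86 to 9.37. For *Pcdhb9*, dorsal SH replicate 1 had 20.7 CPM against 23.2 to 23.6.

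The difference between regions went opposite ways in SH and EE for *Pcdha1*. It was higher in dorsal DG in each SH pool (by 0.148 CPM on average) and lower in each EE pool (-0.104 CPM on average), and the interaction test gave a log2 difference of -0.45 ± 0.321 (SE, adjusted p = 1.00 in edgeR), at 13 to 28 counts per sample. In SH replicate 3, which was left out, it went the other way, with 0.480 CPM in dorsal and 0.784 in ventral DG.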

How the results depend on the processing

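The replicate block (pool for region, number for EE) gave 40, 37 and 41 members for both housings, SH and EE and 0 for the EE contrasts, and changed no call. Leaving out each pool gave 40 to 41, 34 to 39 and 38 to 41. No alternative called a member for EE or for the interaction.

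On log2(TPM + 1), limma called 16 members in EE, instead of 41, and 31 over both housings, and medians of *Pcdha* and *Pcdhb* were 0.17 and 0.32 (0.34 and 0.54 with counts). Named members called with counts but not there were *Pcdhac1*, *Pcdha2*, *Pcdha8*, *Pcdha11* ENSMUSG00000102206 and *Pcdhb6*. This scale understates the change of low genes, and TPM was not rescaled between samples. With summed TPM the log2 difference of the sums was 0.44 in *Pcdha*, 0.70 in *Pcdhb* and 0.39 in *Pcdhg*. The scale of TPM differed between samples (median of log2(TPM + 1) from 1.55 to 2.38). The sums of TPM are therefore not read as larger differences than those of CPM. *Pcdhgc3* turned to 0.00904 with unstranded counts and 0.18 in limma, and *Pcdhgc4* to -0.23 with expected counts and -0.10 in limma. *Pcdha1* was -0.049 with all 20 samples and -0.014 to 0.053 without single pools. The cause was not tested. Unstranded counts held 0 fragments of *Pcdhga10*, which overlaps a gene on the other strand. Members under about 30 counts per sample (*Pcdha1*, *Pcdha8*) had larger errors than the other tested members.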
